A study of Caenorhabditis elegans with 2 samples.

Results

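The 223 regions described here are the CEH-83 peaks of worm embryos whose summit lies inside an intron, away from gene starts and from the classical small RNA genes. They are 17.7% of the peaks that the authors kept by the irreproducible discovery rate (IDR). That method judges how far ranked regions recur between replicates, but a peak in the list need not stand high in both. The other IDR peaks were 321 within 200 bp of a tRNA, snoRNA or snRNA gene, 399 in promoters away from those genes and 315 elsewhere. A region was a member if its summit lay in an intron of a protein-coding gene and in no exon of such a gene. It also had to lie outside every promoter window, which reached 1000 bp before and 200 bp past a coding gene start, and over 200 bp from any tRNA, snoRNA or snRNA gene. The data were chromatin immunoprecipitation and sequencing (ChIP-seq) of mixed-stage Caenorhabditis elegans embryos of both sexes, strain OP727, with an antibody against GFP. All embryos carried the mutation unc-119(tm4063) and the integrated transgene wgIs727, which holds ceh-83 fused to TY1, EGFP and 3xFLAG together with unc-119(+). The labels give egg bleaching, an age of 1 hour and sonication to 200 to 800 bp, and they do not say which promoter or which cells drive the fusion. There was 1 group of 2 biological replicates, with no second genotype or treatment, and no library of untagged animals was analysed here.

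CEH-83 is a homeodomain protein, a class of transcription factor that binds DNA through a conserved helical fold, commonly at short A and T rich words around TAAT. Introns of C. elegans are mostly short, and the long ones can hold enhancers, starts of alternative transcripts and whole non-coding RNA genes nested in their host. Genes of RNA polymerase III are frequent non-specific sites in ChIP-seq, and some of the untranslated RNA genes met below, those of RNase P and of the signal recognition particle, are known polymerase III genes in other animals. Whether CEH-83 itself is bound at any of these regions was not tested.

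The sequences below are 101-base windows centred on the summit, read from ce11, each 5′ to 3′. They show the 5 members of highest signal, those on the chromosome of rpr-1 left out. A further 3, in ckb-2, eat-17 and ceh-83, were chosen after their values were seen: one as a second copy of the same RNA gene, one for the homeodomain word and one for the tagged gene itself. Capitals mark the bases of the RNA gene T28D6.13 in tba-7 and of the hairpin gene mir-36 in Y62F5A.9. In unc-104 they mark GGTTCGA, the core of the tRNA B box, inside a tRNA pseudogene. In klp-6 and ckb-2 they mark the longest stretch that both windows share, in mdt-26 the words GGGCGG and GAGAGA (the first read on the other strand), and in eat-17 the word TAATTA. The window in ceh-83 holds no marked word.
tba-7 intron 1, chrIII:11371446-11371546, plus strand: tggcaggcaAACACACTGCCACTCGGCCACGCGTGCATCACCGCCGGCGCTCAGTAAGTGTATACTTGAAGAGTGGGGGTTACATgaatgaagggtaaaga
unc-104 intron 5, chrII:7001594-7001694, plus strand: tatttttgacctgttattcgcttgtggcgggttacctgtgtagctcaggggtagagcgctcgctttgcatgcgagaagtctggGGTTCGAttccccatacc
klp-6 intron 2, chrIII:5031469-5031569, minus strand: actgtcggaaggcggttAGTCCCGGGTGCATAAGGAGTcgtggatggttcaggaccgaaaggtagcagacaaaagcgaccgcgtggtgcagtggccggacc
ckb-2 intron 7, chrIII:4369549-4369649, plus strand: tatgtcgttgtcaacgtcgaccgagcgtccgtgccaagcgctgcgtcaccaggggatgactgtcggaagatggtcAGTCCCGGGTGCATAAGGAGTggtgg
mdt-26 intron 2, chrII:5661831-5661931, plus strand: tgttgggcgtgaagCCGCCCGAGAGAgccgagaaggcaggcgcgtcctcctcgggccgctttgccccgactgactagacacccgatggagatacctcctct
Y62F5A.9 intron 2, chrII:11537731-11537831, plus strand: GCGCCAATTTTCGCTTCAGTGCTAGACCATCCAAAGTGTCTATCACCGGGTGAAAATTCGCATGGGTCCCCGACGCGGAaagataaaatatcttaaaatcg
eat-17 intron 6, chrX:16403469-16403569, plus strand: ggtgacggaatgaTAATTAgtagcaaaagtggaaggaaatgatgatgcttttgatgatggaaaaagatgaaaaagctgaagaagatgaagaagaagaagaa
ceh-83 intron 6, chrII:1734690-1734790, plus strand: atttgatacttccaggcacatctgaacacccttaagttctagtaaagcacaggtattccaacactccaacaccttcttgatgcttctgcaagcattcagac

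Introns away from small RNA genes gave fewer IDR peaks per candidate region than the pooled list as a whole. The pooled list, made by the authors from both replicates together, holds 30000 regions, and 4.19% of them were IDR peaks. Of its 9341 regions that meet the position rule, 223 were (2.39%, 95% Clopper-Pearson interval 2.09 to 2.72). The depth behind each region is unknown, since no read total was at hand. All intervals cover counting error over regions only and treat neighbouring regions as independent, which they are not.

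The members were mostly weak peaks. Their signal, the authors' own value per region, serves only to rank and describe regions within 1 list. It had a median of 213 (95% interval 207 to 217) and a range of 190 to 748. Promoter peaks away from small RNA genes had a median of 226 (220 to 231), and peaks within 200 bp of a tRNA, snoRNA or snRNA gene one of 349 (319 to 383). Over all IDR peaks the median was 228. Members made up 3 of the 100 highest IDR peaks and 6 of the next 100, but 113 of the 458 peaks beyond rank 800 (24.7%). The lowest 3 members, in rabr-1, unc-7 and Y116F11B.17, had signals of 189.8, 189.7 and 189.6. The highest 3 rule-matching regions outside the IDR list, in unc-62, hsf-1 and ntl-3, all had 189.6 or 189.5, so the list ends at no gap in the values. Every rule-matching region outside the list thus lay below every member. Being called here amounts to a pooled signal above a single level, and does not by itself show recurrence in both replicates.

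**Figure D1:**
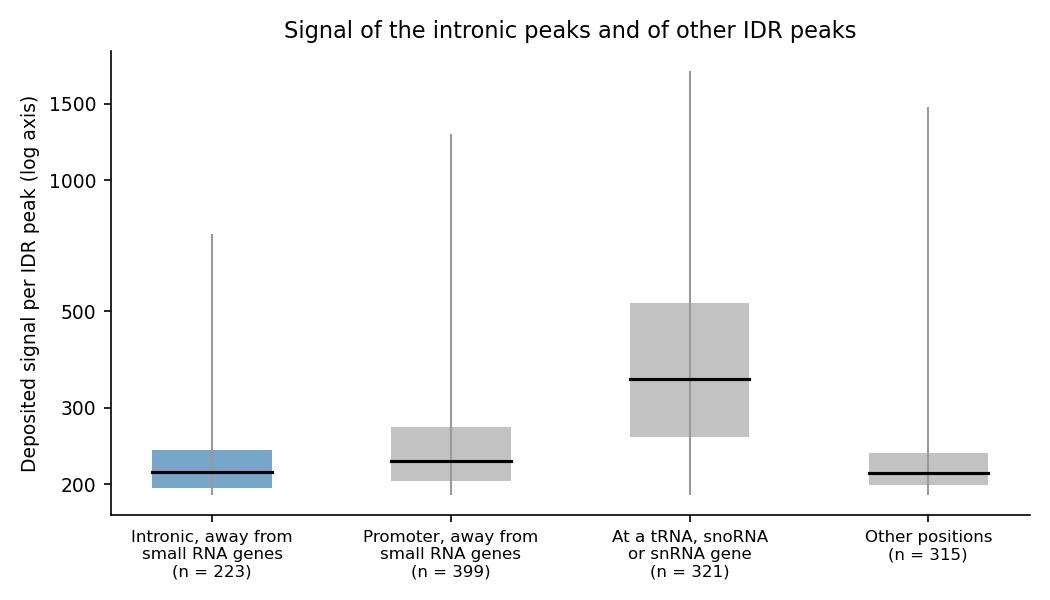
Deposited signal per IDR peak (log axis) by position of the summit; black bars are medians, boxes the interquartile range and lines the full range. The 223 intronic peaks away from small RNA genes have a median of 213 and reach 748, below the tops of the other 3 classes.

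The 2 replicates held nearly all members, but not always near the top of both lists. A summit within 100 bp was present in both replicate lists for 208 of the 223 members. Replicate 1 lacked one for 12 and replicate 2 for 3, with none lacking in both. From each replicate list, as many of its highest regions were then taken as there are IDR peaks. Of the members, 90 (40.4%, 33.9 to 47.1) were in both, 47 in replicate 1 only, 74 in replicate 2 only and 12 in neither. Over all IDR peaks the share in both was 55.9%, and among promoter peaks away from small RNA genes it was 53.4% (48.4 to 58.4). The median rank of members was 949 in replicate 1 and 812.5 in replicate 2, over the members found in each. Ranks beyond 5000 occurred for 11 members in replicate 1 and for 1 in replicate 2. All 20 members of highest signal were among these highest regions of both replicates. That signal comes from both replicates together, so this is no independent check of recurrence.

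**Figure D2:**
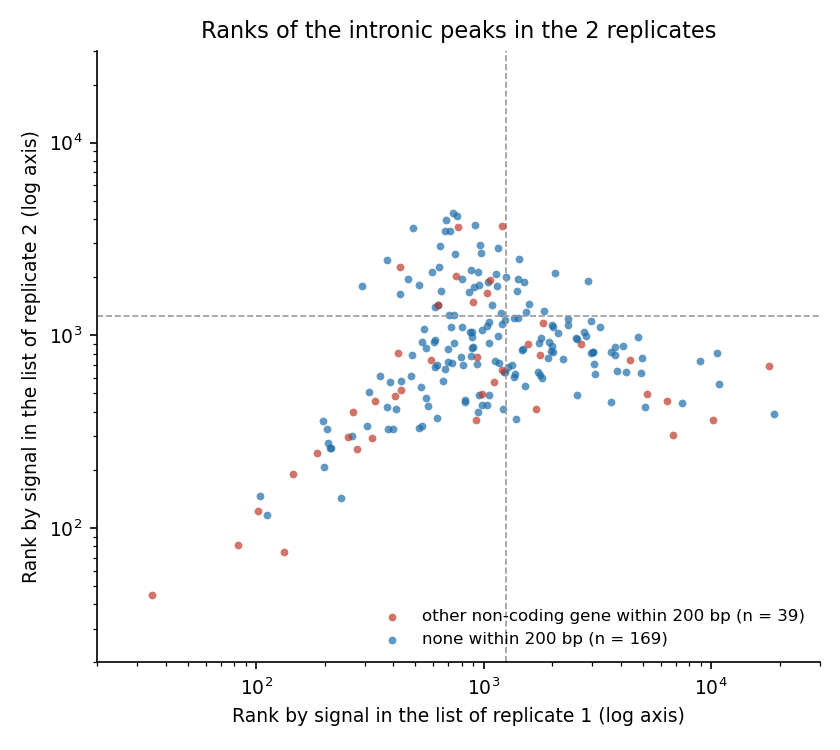
Rank of each member by signal in the list of replicate 1 and of replicate 2 (both log axes, rank 1 highest), for the 208 members with a summit within 100 bp in both; dashed lines mark the rank equal to the number of IDR peaks. Points in red, members with another non-coding gene within 200 bp, include 4 of the 5 nearest the lower left corner, and the spread widens towards the weaker ranks.

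The highest members stood at other non-coding RNA genes nested in the host. The first was in intron 5 of ints-8, which encodes a subunit of the Integrator complex, at rpr-1, the RNA gene of RNase P, the enzyme that trims the 5′ end of tRNA precursors. It spanned chrI:13463775-13464218 with a signal of 748, and it ranked 35 in replicate 1 and 45 in replicate 2. Its summit lay 42 bp inside the rpr-1 gene, which runs against its host. The second, in intron 1 of the alpha tubulin gene tba-7, had a signal of 575 and ranked 83 and 81. Its summit lay 41 bp inside the ncRNA gene T28D6.13 and 7 bp upstream of T28D6.15 on the other strand. The third, in intron 5 of unc-104, the kinesin of synaptic vesicle transport, had a signal of 540 and ranked 132 and 75. Its summit lay 17 bp inside the tRNA pseudogene C52E12.t1, which the rule does not count as a tRNA gene. In the window printed above, the B box core stands 33 bases beyond the summit.

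Introns also held copies of the signal recognition particle RNA. This RNA is part of the particle that brings ribosomes making secreted proteins to the endoplasmic reticulum, and the genes are named srpr. The fourth member, in intron 2 of the kinesin gene klp-6, had a signal of 503 and ranks 102 and 123, with its summit inside srpr-2.2. A second member of that intron, 202 bp away, had a signal of 312 and ranks 253 and 297, with its summit inside the ncRNA gene R144.16. The member in intron 7 of ckb-2, a choline kinase gene, had a signal of 329 and ranks 278 and 257, with its summit inside srpr-1.2. The genes srpr-2.2 and srpr-1.2 are both 299 bp long and identical at 281 positions without gaps (93.98%). The longest stretch that the 2 summit windows share is 21 bases. Each of the other srpr genes, srpr-1.1, srpr-2.1 and srpr-3, also had an IDR summit within 200 bp, with highest signals of 319, 448 and 204, but outside the introns of this rule. All 5 srpr genes thus had an IDR peak. Only 25.1% of the 31-base words around the srpr-2.2 summit and 10.5% of those around the srpr-1.2 summit occur once in the genome, so reads at these copies may not have been told apart.

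Other high members had no annotated non-coding gene within 200 bp. The highest was in intron 2 of mdt-26, which encodes a Mediator subunit, with a signal of 493. A weaker member (199) stood 200 bp from it. K05C4.2 followed with 486, Y57G11C.22 with 411, Y56A3A.7 with 386, gfrl-1, a gene of the GDNF receptor family, with 361 and ugt-50, a glucuronosyltransferase gene, with 349. The chemoreceptor gene srt-52 and T02E1.2 had 337 each, hmr-1, the classical cadherin of epithelial junctions, had 335, and T09B4.5 had 323. The strongest member of each of these 10 genes ranked no lower than 360 in either replicate. Of the 20 highest members, 10 had no such gene and 10 did, 2 lay at a start of another transcript and 5 lay in a first intron.

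Over all members, 42 of 223 (18.8%, 13.9 to 24.6) had another non-coding gene or pseudogene within 200 bp of the summit. Among the 9027 background regions it was 7.24% (6.72 to 7.80). Background here means regions of the pooled list that meet the same position rule and have no IDR summit within 500 bp. The summit lay inside such a gene for 23 members (10.3%) and for 2.37% of background regions. The class was the broad ncRNA class for 36 members, microRNA for 8 and antisense RNA for 2. A lincRNA, a piRNA, a tRNA pseudogene and another pseudogene came to 1 member each, and a member can have several classes. Members with such a gene had a median signal of 231 (213 to 262), and those without one 210 (204 to 216), with overlapping intervals.

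The share of intronic regions that became peaks differed widely by class of neighbour. Of the 24 intronic regions of the pooled list at a microRNA gene, 8 were IDR peaks (33.3%, 15.6 to 55.3). At ncRNA genes it was 36 of 480 (7.50%, 5.31 to 10.2). At piRNA genes, the germline's short guide RNAs, it was 1 of 158 (0.633%, 0.0160 to 3.48), a member in gstk-2 with a signal of 213 beside 21ur-14659. With no such neighbour it was 181 of 8633 (2.10%, 1.80 to 2.42). The intervals for microRNA and ncRNA genes lie above that for regions with none, and the interval for piRNA genes overlaps it.

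**Figure D3:**
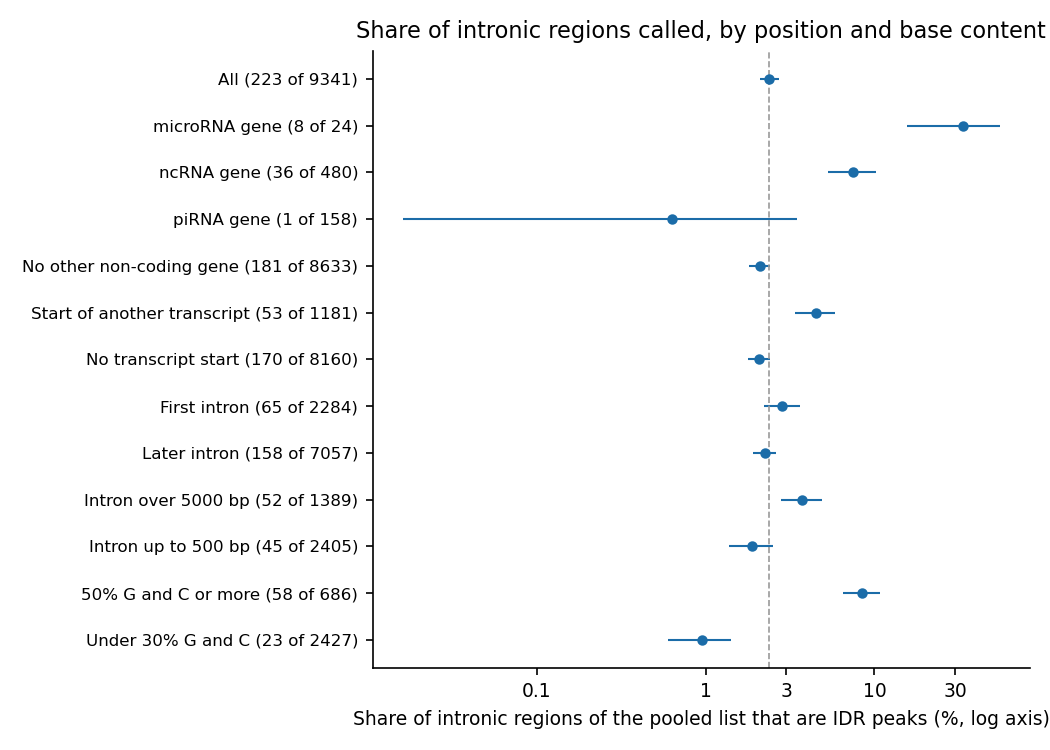
Share of intronic regions of the pooled list that are IDR peaks (%, log axis) for classes of neighbour, position and base content, with counts in brackets; bars are 95% Clopper-Pearson intervals and the dashed line is the 2.39% over all 9341. Regions at microRNA genes (33.3%) stand highest and those at piRNA genes (0.633%) lowest.

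The microRNA members included families known from the embryo. The member in intron 2 of Y62F5A.9 lay inside the cluster mir-35 to mir-38, maternal and embryonic microRNAs that embryos need to develop. It spanned chrII:11537559-11538002 with a signal of 420, ranks of 145 and 190, and a summit 68 bp inside mir-36. In kup-1 a member of 315 stood just past mir-87, and a second one of 218 lay inside it. The first of these ranked 324 in replicate 1 and 292 in replicate 2, while the second ranked 430 and 2262. In ppfr-1 the member at mir-2, a microRNA shared with flies, had a signal of 307. The member at mir-58.1 in phkb-1 had one of 270 and no summit within 100 bp in replicate 2. A member of 249 in F09A5.3 lay at mir-54 and mir-55 of the mir-51 family.

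Among the remaining classes, the antisense RNA anr-20 overlapped 2 members in intron 4 of ppfr-1, with signals of 374 and 264. The lincRNA linc-143 overlapped a member of 208 in intron 1 of daf-2, the insulin receptor gene. The only member at a pseudogene other than a tRNA pseudogene was in pqn-87, at Y57A10A.37, with a signal of 232. The 42 members had 58 different non-coding genes within 200 bp, of which 39 ran against the host and 19 along with it. At background regions the counts were 498 against and 330 along with the host, so genes on the opposite strand were the larger part in both.

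A start of another transcript was the other frequent feature. The rule excluded gene starts, but 53 members (23.8%, 18.3 to 29.9) lay in the same window around another transcript start of a coding gene, against 12.2% (11.6 to 12.9) of background regions. Of intronic regions at such a start, 53 of 1181 (4.49%, 3.38 to 5.83) were peaks, and of those at none 170 of 8160 (2.08%, 1.78 to 2.42). The members of highest signal there were in K05C4.2 (486), T02E1.2 (337), T24B8.3 (289) and W01D2.3 (287). The signal of members at such starts (median 214) and of the other members (213) had overlapping intervals, 206 to 227 and 205 to 217. In all, 139 members had neither such a start nor another non-coding gene, 1.84% of the 7566 pooled regions of that kind.

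Most members lay in later introns. First introns held 65 (29.1%, 23.3 to 35.6), against 24.2% (23.4 to 25.1) of background regions, with overlapping intervals. The second intron held 40 (17.9%), and the median member was in intron 3, as was the median background region. Last introns held 17 members (7.62%, 4.50 to 11.9), against 14.4% (13.7 to 15.1) of background regions. Median signals were 215 for members in first introns and 213 for those in later ones.

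Members lay in longer introns than background regions did. The median intron was 1670 bp long (1329 to 2190) for members and 977 bp (951 to 1004) for background regions. Within later introns the medians were 1333 bp (1053 to 1932) for members and 883 bp (860 to 906) for background regions. Within first introns they were 2810 bp (1869 to 4372) for members and 1764 bp (1588 to 1940) for background regions, with overlapping intervals. Introns over 5000 bp held 52 members (23.3%) and 14.6% of background regions. The longest was intron 1 of T28B11.1 with 17091 bp, at a member of 225, and the shortest were introns of 47 bp in nmtn-1 and ceh-24, at members of 191 and 199. In all, 38 members (17.04%, 12.3 to 22.6) lay in an intron shorter than the region itself, which was 444 bp wide for every member, so that the region reaches over exons on one or both sides. Introns of that kind held 22.7% of background regions (21.8 to 23.6), with overlapping intervals.

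Within the intron, members' summits were fewer on the 5′ side than those of background regions and more in the middle. With the intron cut into 3 equal parts, the 5′ part held 47 members (21.1%, 15.9 to 27.02), against 32.5% (31.6 to 33.5) of background regions. The middle part held 41.7% of members (35.2 to 48.5) and 32.9% of background regions (31.9 to 33.9). The 3′ part held 37.2% of members (30.9 to 43.9) and 34.6% of background regions (33.6 to 35.6), with overlapping intervals. Within 100 bp of the 5′ end of the intron lay 25 members (11.2%, 7.39 to 16.1) and 18.7% of background regions (17.9 to 19.5). Within 100 bp of its 3′ end lay 33 members (14.8%, 10.4 to 20.1) and 19.5% of background regions (18.6 to 20.3), so members were fewer near both ends, at the 3′ end with overlapping intervals. For the 139 members away from non-coding genes and transcript starts, the share before the intron's midpoint was 43.2% (34.8 to 51.8), and that of background regions of the same kind was 50.5% (49.4 to 51.7), with overlapping intervals.

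**Figure D4:**
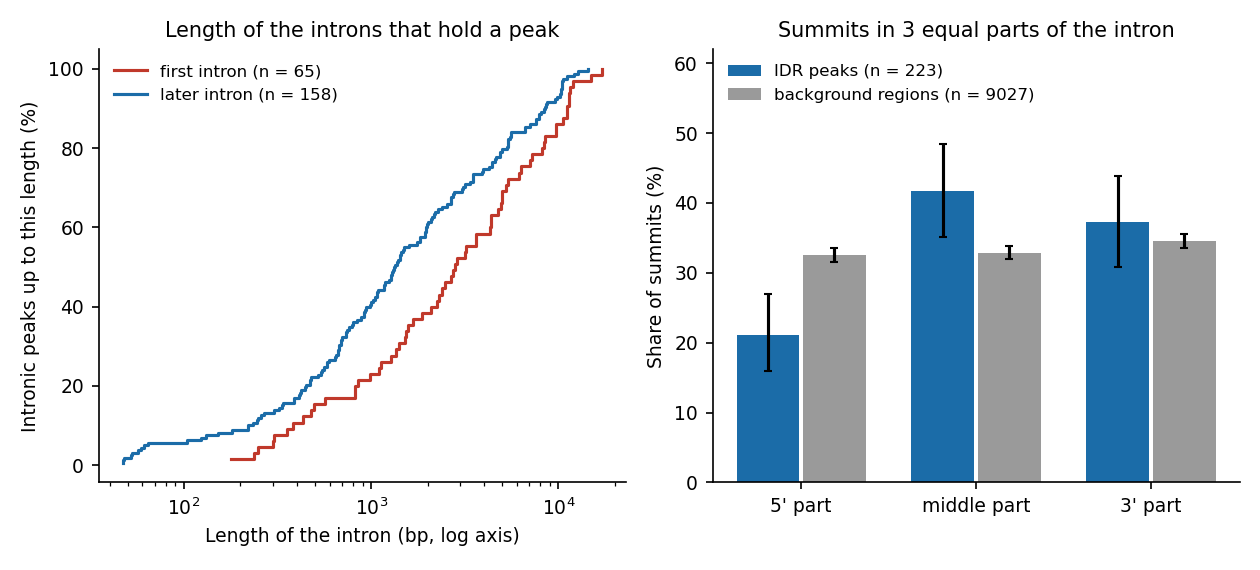
Left, the cumulative share of members (%) by intron length (bp, log axis) for first and later introns; right, the share of summits (%) in 3 equal parts of the intron for members and background regions, with 95% Clopper-Pearson intervals. The curve for first introns lies to the right (median 2810 bp against 1333 bp), and 21.1% of members are in the 5′ part.

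Summit windows of members were richer in G and C than those of background regions. The median over the 101-base windows was 44.6% (41.6 to 46.5) for members and 35.6% for background regions. Windows of the same members centred 300 bp away had a median of 39.1% (38.1 to 40.1), and 144 members (64.6%, 57.9 to 70.8) were richer at the summit than in these flanks, as were 46.1% of background regions. The share of intronic regions that were peaks was 0.948% (0.602 to 1.42) below 30% G and C and 8.45% (6.48 to 10.8) at 50% or more. Members at other non-coding genes had a median of 50.99%, and those without one 41.6%.

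Base content moved with the neighbour classes, and its part in the calls was not tested. Below 40% G and C, regions at another non-coding gene were peaks in 5 of 377 cases (1.33%) and those at none in 78 of 5936 (1.31%). At 40 to under 50% the counts were 14 of 225 (6.22%, 3.44 to 10.2) and 68 of 2117 (3.21%, 2.50 to 4.05), with overlapping intervals. At 50% or more they were 23 of 106 (21.7%, 14.3 to 30.8) and 35 of 580 (6.03%, 4.24 to 8.29). For starts of another transcript the counts below 40% were 24 of 758 (3.17%, 2.04 to 4.67), and away from them 59 of 5555 (1.06%, 0.809 to 1.37). At 40 to under 50% they were 16 of 317 (5.05%, 2.91 to 8.07) and 66 of 2025 (3.26%, 2.53 to 4.13), and at 50% or more 13 of 106 (12.3%, 6.69 to 20.1) and 45 of 580 (7.76%, 5.72 to 10.2), with overlapping intervals in both classes.

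**Figure D5:**
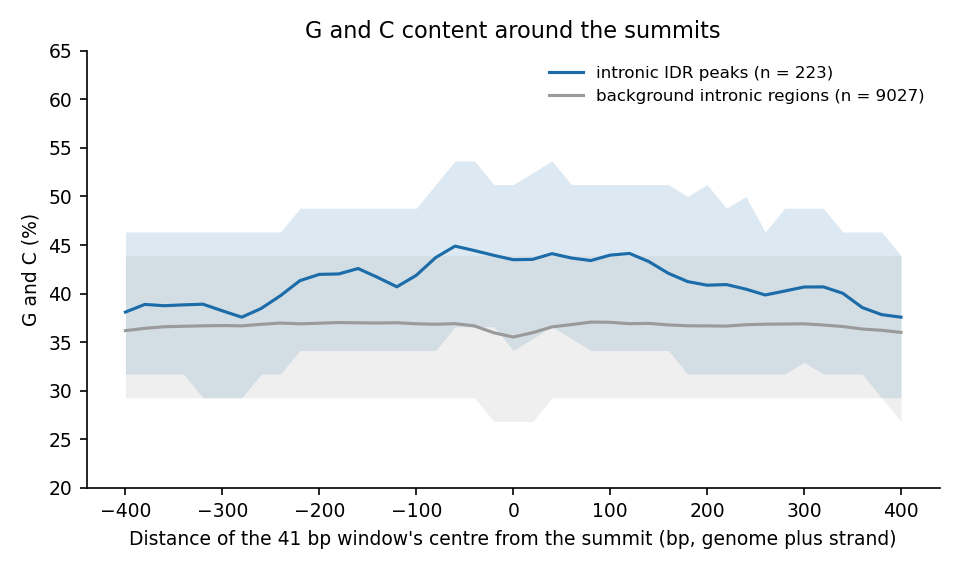
Mean G and C content (%) in 41 bp windows by distance from the summit (bp) for members and background regions; shaded bands are interquartile ranges. At the summit the means are 43.5% for members and 35.5% for background regions, and 400 bp away they differ by less (38.1% and 36.2% on the left).

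Without regard to G and C content, the homeodomain words were not more frequent in members. Member windows are richer in G and C, and TAAT and TAATTA were not compared at equal G and C content. The word TAATTA, which contains TAAT, was found on either strand in 10 member windows (4.48%, 2.17 to 8.09), in 4.44% of background windows and in 4.04% of the members' flanking windows. The shorter word TAAT was in 44.4% (37.8 to 51.2) of member windows, 61.6% of background windows and 52.5% of flanking windows. The member windows of highest signal with TAATTA were in hmr-1 (295), eat-17 (274), Y116A8C.30 (222) and zfh-2 (216). The A and T rich word TTTTTT was in 30.5% of member windows and 48.8% of background windows. TTTCAG, the usual end of a worm intron, was in 13.0% of member windows and 22.2% of background windows. Its share varied with G and C content. Below 35% G and C it was in 19.05% of member and 27.8% of background windows. At 35 to under 40% the shares were 21.95% and 23.1%, and at 40 to under 45% 15.8% and 16.5%. At 45 to under 50% they were 6.82% and 10.97%, and at 50% or more 5.17% and 6.35%. Members had the lower share in every class, always with overlapping intervals.

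Over all members, words rich in G were more frequent. GAGAGA was in 30 member windows (13.5%, 9.26 to 18.6), in 5.76% (5.29 to 6.26) of background windows and in 7.62% of flanking ones. Those of highest signal were in ints-8, mdt-26, ppfr-1 (374) and T09B4.5. GGGCGG was in 16 (7.17%, 4.16 to 11.4), against 2.68% (2.36 to 3.04) of background windows, led by mdt-26, K05C4.2, ptp-3 (273) and phkb-1 (270). These shares varied with G and C content. Below 35% G and C, GAGAGA was in 2.38% of member and 3.22% of background windows, and at 35 to under 40% in 4.88% and 5.25%. GGGCGG was in 0 of 42 member windows and 0.919% of background windows below 35%, and in 2.44% and 2.41% at 35 to under 40%. The intervals overlapped for both words in both of these classes. At 40 to under 45% G and C, GAGAGA was in 15.8% (6.02 to 31.3) of member windows and 7.61% (6.30 to 9.10) of background windows, with overlapping intervals. At 45 to under 50% it was in 27.3% (14.96 to 42.8) of member windows and 10.5% (8.39 to 12.8) of background windows, with intervals apart. At 50% or more it was in 15.5% of member windows and 14.98% of background windows. GGGCGG was in 13.2% (4.41 to 28.1) of member windows and 3.64% (2.73 to 4.73) of background windows at 40 to under 45%. At 45 to under 50% it was in 11.4% of member windows and 5.81% of background windows, and at 50% or more in 8.62% of member windows and 9.77% of background windows, with overlapping intervals in these 3 classes too. The other words were rare. CACGTG was in 5 member windows, the highest in srt-52 (337), T28B11.1 (225), egl-4 (208) and daf-14 (196). GATAAG was in 5, led by mig-10 (262), T02E1.2 (213), daf-19 (206) and F07A11.1 (200). TGACTCA was in klp-6 (312) and psd-1 (193), and GGTTCGA in unc-104 and F52G3.1 (211). Background shares for these 4 words ran from 0.753% for GGTTCGA to 2.60% for GATAAG, inside the intervals for members. A word match describes the letters of a window and says nothing of binding by any factor.

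Taken over all members, repeated sequence was no more frequent than in background regions. At least 90% of the 31-base words within 100 bp of the summit occur once in the genome for 198 members (88.8%, 83.9 to 92.6) and for 88.1% of background regions. The assembly's soft-masked repeats covered a median of 23.8% of member windows (19.8 to 28.7) and 44.6% of background windows. At most 50% was unique for 3 members, in ckb-2, klp-6 and mvk-1, the last with a signal of 204 and named after its value was seen.

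The 223 members fell in 194 host genes, out of 4858 genes that host any pooled region of this kind (3.99%, 3.46 to 4.58). Hosts were long genes, with a median of 8003 bp (6448 to 9941) against 4492.5 bp (4356 to 4620) for genes that host only uncalled regions. They offered a median of 3 such pooled regions each, against 1, so a long gene had more chances to be a host. Only 10 hosts (5.15%, 2.50 to 9.28) also had an IDR summit in their own promoter window, and 3.88% of the other genes did. The chromosome with the most members was I with 51, and X had the fewest with 27. Shares of candidate regions called ran from 1.93% on V (1.30 to 2.76) to 2.79% on I (2.08 to 3.65), with overlapping intervals.

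Several hosts held more than 1 member. The most was 5 in ppfr-1, which encodes a regulatory subunit of protein phosphatase 4. Its 2 members in intron 4 had signals of 374 and 264, and its 3 in intron 5 had 307, 234 and 201.4, all within 200 bp of a non-coding gene. The member of 264 stood 210 bp from that of 374, and it ranked 18034 in replicate 1 and 691 in replicate 2. The member of 201.4 stood 201 bp from that of 307. It had no summit within 100 bp in replicate 1 and ranked 6909 in replicate 2. In each of these pairs the regions overlap. Each of 6 genes held 3: hmr-1, noca-1, which organizes microtubules outside centrosomes, the receptor tyrosine phosphatase gene ptp-3, the cell cycle phosphatase gene cdc-25.2, the zinc finger homeobox gene zfh-2 and F53A10.2. The members in hmr-1 had signals of 335, 295 and 226, those in zfh-2 216, 207 and 207. In 15 introns there were 2 or more members, and in 9 of these the nearest summits were 200 to 228 bp apart, so that their 444 bp regions overlap. Members with overlapping regions share reads and are not independent.

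Genes of transcription factors stood among the hosts. Of 53 homeobox genes that could host a member, 6 did (11.3%, 4.27 to 23.03). Of 85 other transcription factor genes 10 did (11.8%, 5.79 to 20.6). Over all possible hosts it was 3.99% (3.46 to 4.58), an interval that the homeobox one overlaps. Median lengths of possible hosts were 4413 bp for homeobox genes and 5286 bp for the other factors, against 4555.5 bp over all. Per candidate region the shares called were 6.45% for homeobox genes and 4.93% for the other factors, against 2.39% over all. The homeobox share rests on 8 members in 124 regions, 3 of them in zfh-2. The homeobox hosts were ceh-43 with 248, related to Distal-less, zfh-2 with 216, ceh-83 with 202 and ceh-54 with 199, followed by ceh-24 and the Otx gene ttx-1 at 199 and 195. The highest of the other factors listed were the ETS gene ast-1 with 296 and the GATA gene elt-6 with 279. They were followed by the TCF gene pop-1 with 248 and the zinc finger gene ztf-11 with 229. The list was written as names and patterns and does not hold every such gene. The host egl-18, with 240, was not on it. No nuclear hormone receptor gene was a host (0 of 68, interval 0 to 5.28%). The share over all possible hosts, 3.99%, lies inside that interval.

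The tagged gene ceh-83 was itself a host. The member spanned chrII:1734518-1734961 in intron 6 of 9, with a signal of 202, a rank of 1054 in replicate 1 and one of 1174 in replicate 2. The strain carries further copies of ceh-83 in the transgene. Reads from these cannot be told apart from reads of the chromosomal gene here.

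Signalling, adhesion, channel and chemoreceptor genes made up further lists. The listed kinase, GTPase and other signalling genes had 13 hosts of 172 (7.56%, 4.09 to 12.6). The highest of those listed were rgs-6, a regulator of G proteins, with 262 and the Notch cofactor sel-8 with 257. They were followed by the G protein gene gsa-1 with 236 and rhgf-3 with 235.03. Synapse, axon guidance and neuronal adhesion genes had 7 of 89 (7.87%, 3.22 to 15.5), led by unc-104, ptp-3, mig-10 with 262 and the latrophilin gene lat-1 with 244. Matrix and epithelial adhesion genes had 6 of 62 (9.68%, 3.63 to 19.9), led by hmr-1, the spectraplakin gene vab-10 with 240, the perlecan gene unc-52 with 222 and the dystroglycan gene dgn-1 with 217. Ion channel and receptor genes had 1 of 158 (0.633%, 0.0160 to 3.48), twk-36 with 233, and chemoreceptor genes 1 of 169 (0.592%, 0.0150 to 3.25), srt-52. The interval of the synapse list overlaps those of the channel and chemoreceptor lists. Median lengths of possible hosts were 8520 bp for signalling genes, 8989 bp for synapse genes, 9471.5 bp for matrix genes, 8134 bp for ion channel genes and 2137 bp for chemoreceptor genes, against 4555.5 bp over all. Per candidate region the shares called were 2.90% for signalling genes, 3.01% for synapse genes, 4.33% for matrix genes, 0.299% for ion channel genes and 0.5% for chemoreceptor genes, against 2.39% over all. Muscle genes had 2 of 44 (act-4 with 247 and tln-1 with 209), and chromatin genes 2 of 51 (top-3A with 208 and nurf-1 with 204). There was no host among 34 genes of ribosomal proteins and translation (interval 0 to 10.3%) or among 29 collagen genes (0 to 11.9%). The lists were written as names and patterns and do not hold every gene of a class. The hosts phkb-1 with 270, mbk-2 with 249 and kal-1 with 233, for example, were on none. These lists were chosen with earlier results of the same data known, and no test was made of them.

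The members nearest the edges of the rule were mostly low in signal. The closest to a small RNA gene was in unc-83, 256 bp from the snoRNA gene W01A11.21, with 200, followed by T22F3.2 at 422 bp with 278 and cdh-12 at 882 bp with 196. Just outside, peaks in his-72 at 194 bp, dmd-5 at 178 bp and spe-9 at 170 bp had 313, 253 and 193. Nearest to the upstream limit of 1000 bp were members in ucr-2.3 at 1022 bp with 196, Y53H1C.3 at 1073 bp with 191 and mdt-26 at 1095 bp with 493. Outside it were M01F1.8 at 978 bp with 701, smd-1 at 854 bp with 216 and hap-1 at 743 bp with 196. Nearest to the downstream limit of 200 bp were tsen-34 and ceh-54 at 214 bp with 190 and 199, and fasn-1 at 224 bp with 196. Outside it were Y87G2A.19 at 196 bp with 231, Y47D9A.1 at 183 bp with 190 and F42A10.5 at 163 bp with 211.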

How the data were processed

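The deposited values were lists of regions on ce11 from embryos of strain OP727, 2 biological replicates in 1 group. Per the deposited file listing, relaxed lists of 30000 regions were made for each replicate and for both pooled, each against a control alignment, and the IDR list of 1258 regions was derived from them. No threshold, aligner or caller is given in the sources used here, and the control library was not analysed here. The deposited signal is the authors' measure of enrichment, comparable within a list only. The deposited summit offset, a position with no other unit, gave each summit.

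Genes came from Ensembl release 115 (WBcel235, the same assembly as ce11), symbols from RefSeq by WormBase identifier (19965 of 19985 coding genes). The intron was taken in the longest spliced transcript among those of the host with the summit in an intron, so members of 1 host can differ in transcript. Non-coding genes were extended by 200 bp, replicate summits matched within 100 bp, and words searched on both strands within 50 bp of the summit. The plan asked for no exon of any gene. Exons of coding genes alone were used instead, since the rule of choice did not exclude non-coding genes, and the stricter reading, tried after seeing the data, is given among the alternatives. Shares carry exact Clopper-Pearson 95% intervals and medians exact binomial ones. With 1 group, no test compares samples, and none was made over regions. Interval and word-uniqueness code was tested on simulated data. Genes named were the hosts of the 20 highest members, hosts with 3 or more, the longest and shortest introns, the 4 highest in each list or class and the 3 nearest each edge. Hosts missing from the lists were named after their values were seen. Scripts ran in Python 3.11.15 with numpy 2.4.6, pandas 2.3.3 and scipy 1.17.1. The members and lists were chosen with earlier results of these data known.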

Additional observations from a re-analysis of the deposited data

How the results depend on the processing

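Of 236 values recomputed under 19 alternatives, 206 stayed within the interval of the reported value (counts within 1.5 times) and 30 did not. Keeping only the stronger of 2 equal parts of the IDR list left 70 members in 62 host genes, 0.749% of rule-matching pooled regions. Their median signal was 263 and 85.7% were among the highest regions of both replicates. Their median intron was 2329.5 bp, their median G and C content 47.5%, and 82.9% lay in unique sequence. Another non-coding gene was within 200 bp for 31.4% of them. That share was 10.3% with no margin around the genes, and 9.50% when no exon of any gene was allowed at the summit, which left 200 members. With windows around all transcript starts, the share of rule-matching regions called was 2.08%. With 50-base words 95.1% of members lay in unique sequence.

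Without replicate 1 there were 241 members and without replicate 2 there were 222; their signal is on another scale, so no median signal is given. The direction of the differences from background was not recomputed under these alternatives. Word shares moved in 17 of 120 cases, mostly with the width of the window. No paired analysis was possible because there is 1 group and no test. Unknown read depth limits every call: a region outside the IDR list may be bound.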
